A study of Mus musculus with 8 samples.

Results

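Integrins are surface receptors made of 1 alpha and 1 beta chain, through which cells hold on to matrix proteins and to other cells. The chains described here are 9 genes taken by symbol, the alpha chains Itgam, Itgal, Itga4, Itga6 and Itgav and the beta chains Itgb1, Itgb2, Itgb5 and Itgb7, out of 23469 genes in the table. Itgax was left out by the rule and is used only for comparison, and 18 other integrin chains were in the table in all. All 9 chains had a mean of at least 1 TPM (transcript abundance scaled to a fixed library sum and to transcript length) over the libraries and entered the test.

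Smart-seq2 libraries of 4 AeEMs (ascites-enriched embryonic macrophages) and 4 AeMMs (ascites-enriched monocyte-derived macrophages) were compared. Both groups were sorted from bloody malignant ascites of female C57BL/6 mice of the Ms4a3TdT fate-mapping line, which had received ID8 mouse ovarian tumour cells into the peritoneum at 4 to 5 weeks of age, and the ascites was drawn 65 days later. No other treatment was given, and no tumour-free mouse was part of the comparison. AeEMs were the tdTomato-negative and AeMMs the tdTomato-positive cells of 1 gate, which took live CD45+ cells without Ly6G, SiglecF and Ly6C that carried F4/80 and CD11b. Cre is driven by Ms4a3, a gene of granulocyte-monocyte progenitors, so the negative group holds any cell of the gate whose ancestors did not express it. CD11b is the protein of Itgam, so cells of both groups were picked for 1 of the 9 chains. The libraries came from 4 mice, and whether equal replicate numbers share a mouse is not stated in the sources used here.

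Values are on the deposited log2(TPM + 1) scale, in which a gene's mean nearly coincides between 3 sets. The pair of libraries numbered 1 is the first set, the pair numbered 2 is the next, and the 4 libraries numbered 3 or 4 form the last. This is called the adjustment between sets here, although no source used describes how it was made. For each of the 9 chains the 3 set means spanned 0.0021 to 0.032. In replicates 1 and 2, a value high in one group is therefore matched by a low value in the other. The read depth is unknown, and precision rests on 4 libraries per group. The 9 macrophage markers checked (among them Lyz2, Csf1r and Adgre1) were all well expressed, with summed levels of 91882 to 100211 TPM in AeEMs and 92024 to 105105 TPM in AeMMs, and 0 of the 9 passed the threshold (4 at an unadjusted limma p under 0.05). The number of genes at 1 TPM or more was 8498 to 8753 per library.

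In macrophages the leukocyte integrins share the beta 2 chain, which pairs with Itgam to form Mac-1, a receptor for complement fragments and fibrinogen, with Itgal to form LFA-1, the receptor for intercellular adhesion molecules, and with Itgax or Itgad. Itga4 pairs with Itgb1 to bind vascular cell adhesion molecule 1 and fibronectin, or with Itgb7 to bind the mucosal addressin. Itga6 with Itgb1 binds laminin, and Itgav with Itgb5 binds vitronectin. In resting cells the heterodimer is held in a bent form until talin and kindlin bind the beta chain from inside.

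None of the 9 chains passed the threshold between AeEMs and AeMMs. Itgal, Itga6 and Itgb5 stood lower in all 4 AeEM libraries than in any AeMM library, by 0.42, 0.38 and 0.31 on the log2 scale. Itgb2, Itgb1 and Itgam, the 3 most abundant chains, had differences of 0.01, 0.03 and -0.04. Itgam, Itgav and Itgb7 had the widest spread within groups, with SDs of 0.21 to 0.40, and spread more within a group than between the groups. Itgax, the dendritic cell and macrophage chain outside the list, was higher in AeEMs, 2.07-fold on the TPM + 1 scale.

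The test was limma with a mean-variance trend over 8801 genes, unpaired, with a Benjamini-Hochberg adjusted p of 0.05 as threshold, and it called 0 of the 9 chains (smallest adjusted p = 0.080), against 2.41% of all genes. A second limma model, called the set model below, also fitted the 3 sets, and it called 0 chains as well (smallest adjusted p = 0.45), against 0.159% of all genes. Without adjustment, 3 chains had a limma p under 0.05 in the unpaired fit and 2 in the set model, where 18.0% and 9.64% of all genes did. The 3 chains lower without overlap compare with 6.53% of all genes tested. With libraries weighted by limma's arrayWeights, 3 chains were called lower, Itga6 (adjusted p = 0.013), Itgal (0.016) and Itgb5 (0.028), where that fit called 9.50% of all genes lower. These weights ran from 2.14 to 2.37 for replicates 1 and 2 and from 0.39 to 0.48 for replicates 3 and 4. Neither the weights nor that fit took account of the adjustment between sets. The median difference of the 9 chains was -0.13, beside -0.01 for all genes tested, and 6 of the 9 differences were negative.

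**Figure D1:**
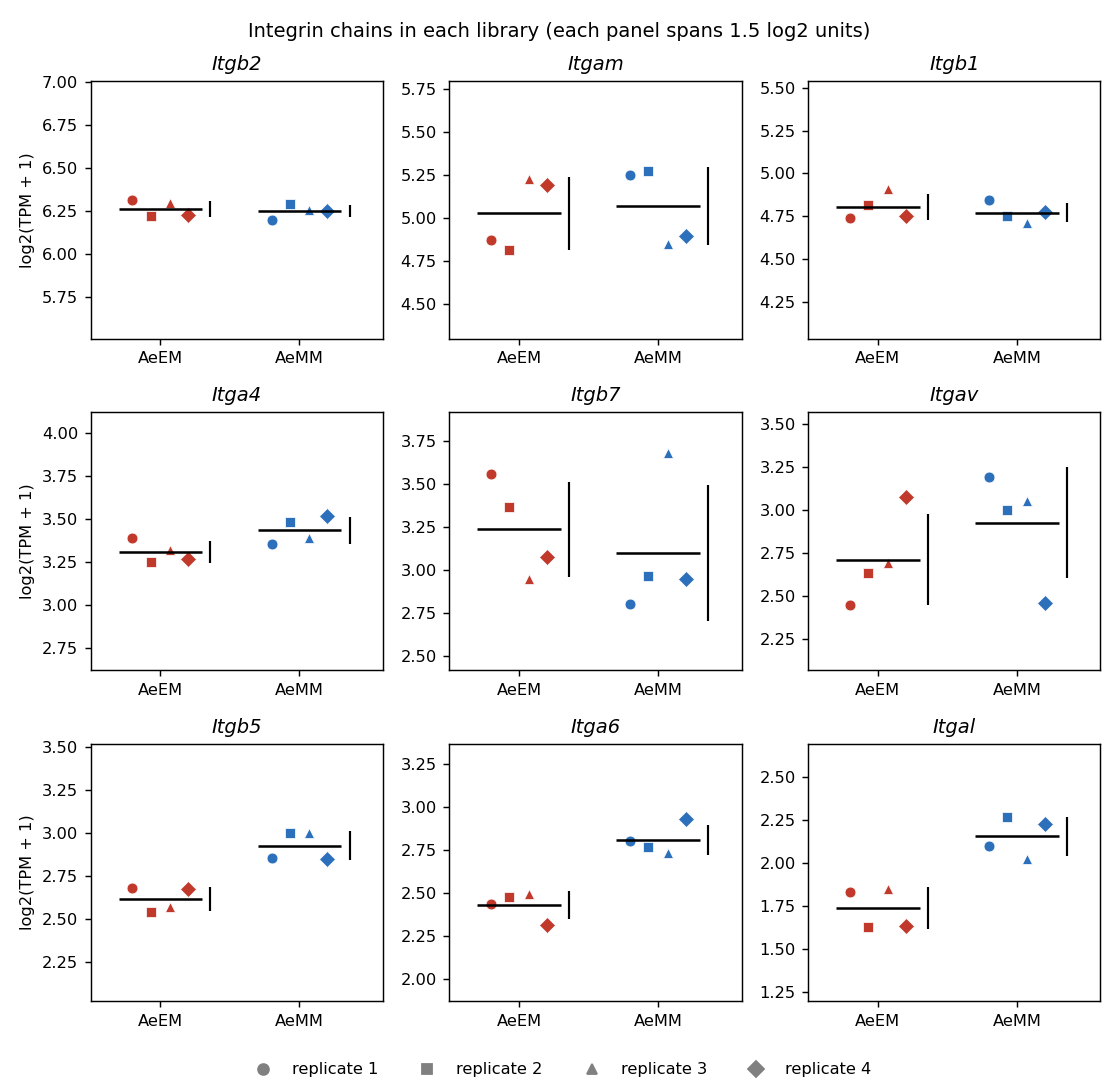
Level of each integrin chain in log2(TPM + 1) on the vertical axis, in AeEMs (red) and AeMMs (blue), with marker shapes for the replicate number, horizontal lines for the mean and vertical bars for the SD of 4 libraries. Panels run from the most abundant chain, Itgb2, to the least, Itgal, and only Itgb5, Itga6 and Itgal have no overlap between the groups.

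By level, Itgb2 led in all 8 libraries, with a mean of 75.5 TPM, followed by Itgam at 32.4 TPM and Itgb1 at 26.7 TPM. Itgam was above Itgb1 in 8 of 8 libraries, by as little as 0.0035 on the log2 scale in 1 of them. A wide step of 1.42 separated Itgb1 from Itga4 at 9.38 TPM. The order of the middle chains was not fixed. Itga4 was above Itgb7 (8.20 TPM) in 5 of 8 libraries, Itgb7 above Itgav (6.20 TPM) in 6, and Itgav above Itgb5 (5.87 TPM) in 6, and in each of these steps the mean difference was smaller than its SD over libraries. Itgb5 was above Itga6 (5.20 TPM) in 7 of 8 libraries, and Itga6 above Itgal (2.90 TPM) in all 8. TPM is scaled per transcript length, but how it was computed here is not stated and overlapping genes may have taken reads, so the order of levels is approximate.

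RefSeq promoters on GRCm38.p6, from 250 bases before to 50 after the start site, were at hand for 6 of the 9 chains. The 3 shown are those of Itgam, the chain of the gate with a difference near 0, of Itgb5, lower in AeEMs without overlap, and of Itgb7, the most variable chain. Sequences run 5′ to 3′ on the gene's strand. Capitals mark GAGGAA, the core of sites bound by PU.1 and other ETS factors of myeloid cells, or GGGCGG, the core of SP and KLF sites, on either strand, so that TTCCTC and CCGCCC are their reverse forms.
Itgam, chr7:128062390-128062689, plus strand: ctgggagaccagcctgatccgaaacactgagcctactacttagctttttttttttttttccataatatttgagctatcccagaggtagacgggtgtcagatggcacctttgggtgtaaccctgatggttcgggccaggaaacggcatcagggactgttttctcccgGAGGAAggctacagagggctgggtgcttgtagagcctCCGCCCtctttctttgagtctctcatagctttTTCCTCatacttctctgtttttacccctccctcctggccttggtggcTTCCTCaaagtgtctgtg
Itgb5, chr16:33829415-33829714, plus strand: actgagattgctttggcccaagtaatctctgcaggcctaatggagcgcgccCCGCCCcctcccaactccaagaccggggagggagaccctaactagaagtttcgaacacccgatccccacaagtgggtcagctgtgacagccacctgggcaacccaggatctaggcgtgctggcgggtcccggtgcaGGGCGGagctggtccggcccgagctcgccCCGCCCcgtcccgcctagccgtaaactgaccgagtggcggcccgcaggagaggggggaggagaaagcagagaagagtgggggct
Itgb7, chr15:102231886-102232185, minus strand: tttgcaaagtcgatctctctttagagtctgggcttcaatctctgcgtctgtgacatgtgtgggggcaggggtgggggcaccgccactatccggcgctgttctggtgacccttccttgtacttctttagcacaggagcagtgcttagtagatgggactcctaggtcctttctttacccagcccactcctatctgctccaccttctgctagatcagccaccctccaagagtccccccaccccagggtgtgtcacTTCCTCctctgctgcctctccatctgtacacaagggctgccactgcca

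The Itgam promoter held GAGGAA 3 times and GGGCGG once, the Itgb5 promoter GGGCGG 3 times and no GAGGAA, and the Itgb7 promoter GAGGAA once and no GGGCGG. No 2 of these matches overlapped. Of 32851 promoters of this length, 28.3% held GAGGAA and 35.7% held GGGCGG. Neither TATAAA (13.6% of all promoters) nor TGTGGT, a RUNX core (16.8%), was found in these 3, and of the other 3 chains only Itga4 held TGTGGT. The G and C content was 50.3% for Itgam, 65.7% for Itgb5 and 56.3% for Itgb7, beside a median of 52.7% for all promoters. The matches are descriptions of letters, not of bound sites.

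Itgb2, the beta chain shared by Mac-1 and LFA-1, was the steadiest of the 9. Its log2(TPM + 1) was 6.31, 6.22, 6.30 and 6.23 in AeEM replicates 1 to 4 and 6.20, 6.29, 6.26 and 6.25 in AeMM replicates 1 to 4. All 8 values fell within a range of 6.20 to 6.31, and the groups overlapped. AeEMs minus AeMMs gave 0.01 (SE 0.06, adjusted p = 0.94 in limma), with a 95% interval of -0.12 to 0.15, and of -0.19 to 0.22 in the set model. Itgb2 lies on chromosome 10 of mm10 from 77530252 to 77565708.

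Itgam, the alpha chain of Mac-1 and the CD11b of the sort gate, was next. Its log2(TPM + 1) was 4.88, 4.82, 5.23 and 5.19 in AeEM replicates 1 to 4 and 5.25, 5.28, 4.85 and 4.90 in AeMM replicates 1 to 4. The high values were AeEM replicates 3 and 4 and AeMM replicates 1 and 2, so the groups overlapped and the sign turned with the set. AeEMs stood 0.38 lower in replicate 1 and 0.46 lower in replicate 2 (differences of -0.38 and -0.46), and 0.34 higher in replicates 3 and 4. Over all libraries the difference was -0.04 (SE 0.14, adjusted p = 0.92 in limma), with a 95% interval of -0.36 to 0.28. The interval of the set model was -0.43 to 0.35. Whether the difference itself varied between sets was not tested. Itgam lies on chromosome 7 from 128062640 to 128118491. In GENCODE M21 the gene Gm49368 overlaps it on the same strand, so reads in shared exons may have been lost or split if the authors' annotation, which is not stated, held both.

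Itgal, the alpha chain of LFA-1, was the least abundant member. Its log2(TPM + 1) was 1.83, 1.63, 1.85 and 1.63 in AeEM replicates 1 to 4, against 2.10, 2.27, 2.02 and 2.23 in AeMM replicates 1 to 4. Every AeEM library lay below every AeMM library. The difference was -0.42 (SE 0.11, 95% interval -0.68 to -0.16), and it missed the threshold in limma (adjusted p = 0.097 unpaired and 0.47 in the set model). The two-sided exact permutation test over 4 and 4 libraries gave p = 0.0286, the smallest it can give, and it takes no account of the adjustment between sets. Within sets the difference was -0.27, -0.64 and -0.38 (replicate 1, replicate 2, then replicates 3 and 4 together). In back-transformed values, Itgal averaged 2.34 TPM in AeEMs and 3.46 TPM in AeMMs. Itgal lies on chromosome 7 from 127296260 to 127335138.

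LFA-1 is abundant on lymphocytes and granulocytes, and their markers were looked at beside it. The 10 T and NK cell markers summed to 1.96 to 19.6 TPM in AeEM libraries and 16.1 to 30.9 TPM in AeMM libraries. Ncr1 was under 0.1 TPM in every library. Of 3 tested, 1 was lower in AeEMs, Nkg7, a granule protein of NK and cytotoxic T cells. The other 2 did not pass, among them the most abundant, Trbc1, with means of 5.24 TPM in AeEMs and 5.06 TPM in AeMMs. In the AeEM library with the lowest sum, Trbc1 was at most 1.96 TPM, so its AeEM mean rested on other libraries. Of the 3 tested, 2 had an unadjusted limma p under 0.05 in each model, and the median difference of the 3 was -1.10. The neutrophil list, with 8 of 9 markers in the table, summed to 10.8 to 13 TPM and 22.3 to 30.6 TPM, with its 1 tested marker, S100a8, lower in AeEMs and with Mpo and Cxcr2 under 0.1 TPM throughout. Summed levels of the 8 monocyte markers overlapped, at 195 to 308 TPM and 195 to 245 TPM. Of the 7 tested, 2 were lower in AeEMs, Ly6c2 and Chil3. The other 5 did not pass, among them the most abundant of the list, whose mean TPM was higher in AeEMs. Before adjustment, 4 of the 7 had a limma p under 0.05 in the unpaired fit and 3 in the set model. In the set model 0 markers of these 3 lists passed the adjusted threshold. Whether they have a part in the lower Itgal, Itga6 or Itgb5 was not tested. In bulk samples, fewer cells of a type and less RNA per cell cannot be told apart.

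Among the alpha chains that can pair with Itgb2, Itgam held most of the transcript. Its share of the summed TPM of Itgam, Itgal, Itgax and Itgad was 76.8%, 78.1%, 85.0% and 80.6% in AeEM replicates 1 to 4 and 87.7%, 86.7%, 83.5% and 83.7% in AeMM replicates 1 to 4, with overlap between the groups. Itgax took 13.9% ± 3.4 in AeEMs and 5.54% ± 1.30 in AeMMs (SD, n = 4 libraries), and Itgal 5.94% ± 0.89 and 9.08% ± 1.23. For both, the groups did not overlap, Itgax being higher and Itgal lower in AeEMs. Itgax thus ranked ahead of Itgal in each AeEM library and behind it in each AeMM library. Itgad was at or near 0 in every library, with a highest share of 0.071%. The shares of a library add up to the whole, so they are not independent of each other, and they carry no test. Itgb2 over the sum of the 4 alpha chains was 1.93 ± 0.23 in AeEMs and 1.98 ± 0.28 in AeMMs, with overlap.

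**Figure D2:**
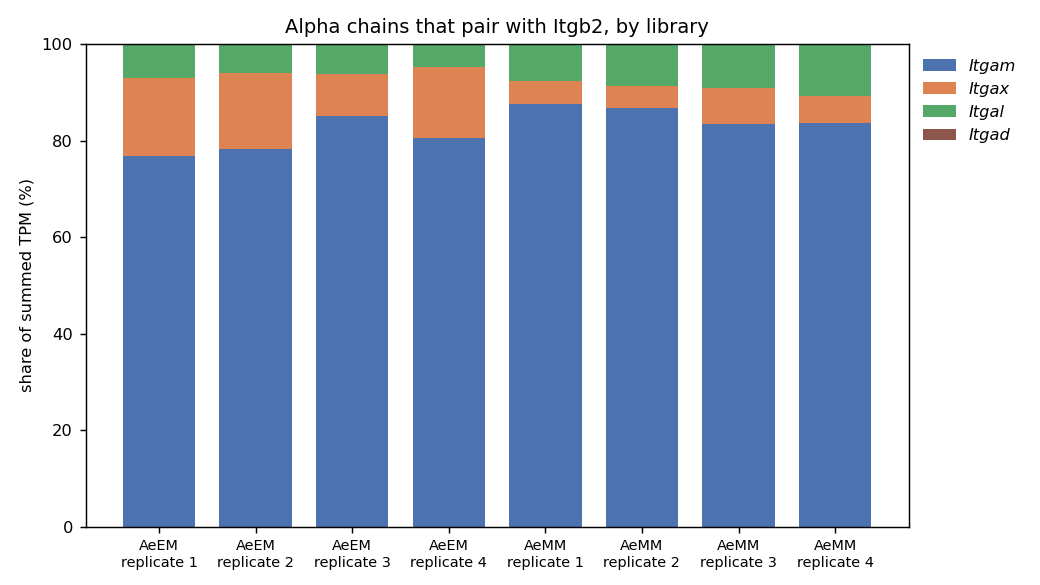
Share (%) of each alpha chain in the summed TPM of the 4 alpha chains that pair with Itgb2, one bar for each of the 8 libraries. Itgam takes 76.8% to 87.7% of every bar, and the Itgax segment is wider in all 4 AeEM libraries than in any AeMM library.

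Itgax itself had log2(TPM + 1) values of 2.81, 2.7, 2.27 and 2.90 in AeEM replicates 1 to 4 and of 1.56, 1.59, 1.79 and 1.56 in AeMM replicates 1 to 4. The lowest AeEM value exceeded the highest AeMM value. Its difference was 1.05 (SE 0.15, adjusted p = 0.0109 in limma), and it did not pass in the set model of limma (adjusted p = 0.115). The 9 dendritic cell markers summed to 125 to 211 TPM in AeEMs and 73.4 to 95.1 TPM in AeMMs, and of the 3 tested 1 was higher in both limma models, Cd209a, a lectin of monocyte-derived dendritic cells. All 3 had an unadjusted limma p under 0.05 in both models, and their median difference was 1.48. None of the 9 was under 0.1 TPM in every library, and their part in the Itgax difference was not tested. The 4 genes lie on 1 strand of chromosome 7, where Itgam, Itgax and Itgad follow each other with gaps of 11.1 and 3.72 kb, and Itgal lies 727.5 kb before Itgam. The 95% intervals of the neighbours Itgam and Itgax were -0.36 to 0.28 and 0.70 to 1.39 in the unpaired fit, and the difference between them was not tested.

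Itgb1, the beta chain with the most alpha partners, was nearly as steady as Itgb2. Its log2(TPM + 1) was 4.74, 4.81, 4.91 and 4.75 in AeEM replicates 1 to 4 and 4.84, 4.76, 4.71 and 4.78 in AeMM replicates 1 to 4. No library stood apart and the groups overlapped. The difference was 0.03 (SE 0.07, adjusted p = 0.88 in limma), with a 95% interval of -0.13 to 0.20, and of -0.22 to 0.28 in the set model. Itgb1 lies on chromosome 8 from 128685654 to 128733200.

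Itga4 is the alpha chain of VLA-4, through which monocytes leave blood vessels. It stood at 3.39, 3.25, 3.32 and 3.27 in AeEM replicates 1 to 4 and at 3.35, 3.48, 3.39 and 3.52 in AeMM replicates 1 to 4 (log2(TPM + 1)). The groups overlapped through replicate 1 alone, where the AeEM value was the higher. The difference was -0.13 (SE 0.09, adjusted p = 0.49 in limma), with a 95% interval of -0.32 to 0.07 and an exact permutation p of 0.086. With the set model the interval ran from -0.43 to 0.17. Itga4 lies on chromosome 2 from 79255426 to 79333123, where Cerkl (mean 0.106 TPM) overlaps it on the opposite strand, and whether the counting used strand is not stated.

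Itga6, the laminin-binding alpha chain, had log2(TPM + 1) values of 2.44, 2.48, 2.49 and 2.31 in AeEM replicates 1 to 4 and of 2.80, 2.76, 2.73 and 2.93 in AeMM replicates 1 to 4. All AeEM libraries were below all AeMM libraries, and the gap between the groups was wider than the SD of either (0.08 and 0.09). Its difference of -0.38 (SE 0.10, 95% interval -0.59 to -0.16) had the smallest adjusted p of the 9 chains in limma (0.080 unpaired and 0.45 in the set model). The exact permutation p was 0.0286. In the 3 sets it was -0.37, -0.29 and -0.43, the narrowest range of the 3 chains without overlap. On the TPM scale the means were 4.4 in AeEMs and 6.01 in AeMMs. Itga6 lies on chromosome 2 from 71745616 to 71858416. In GENCODE M21 the transcripts Gm13663 (mean 0.021 TPM) and Gm13662 overlap it on the same strand, and Gm17250 and Gm13739 on the opposite strand, so its reads too may have been lost or split, depending on the authors' annotation and strand setting.

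Itgb7, the beta chain of the gut-homing integrin of lymphocytes, varied most. It stood at 3.56, 3.37, 2.95 and 3.08 in AeEM replicates 1 to 4 and at 2.80, 2.96, 3.68 and 2.95 in AeMM replicates 1 to 4 (log2(TPM + 1)). The highest value of all was that of AeMM replicate 3, and the next were AeEM replicates 1 and 2. The difference was 0.14 (SE 0.21, adjusted p = 0.80 in limma), with a 95% interval of -0.34 to 0.62. The set model widened this interval to -0.44 to 0.71. By set the difference was 0.75, 0.40 and -0.30. Single libraries moved it in both directions, down to 0.031 when AeEM replicate 1 was left out, 0.039 for AeMM replicate 1 and 0.087 for AeMM replicate 4, and up to 0.23 for AeEM replicate 3 and 0.33 for AeMM replicate 3. Mast cells carry Itgb7 too, and the 7 mast cell markers summed to 0.56 to 8.82 TPM in AeEMs and 0.31 to 1.84 TPM in AeMMs. The 7 B and plasma cell markers summed to 34.6 to 84.6 TPM and 66.2 to 81.8 TPM, and Jchain and Pax5 were under 0.1 TPM in all libraries. No mast cell marker reached 1 TPM on average to be tested, and 0 of 5 tested B and plasma cell markers passed or had an unadjusted limma p under 0.05. Their part in the spread of Itgb7 was not tested. Itgb7 lies on chromosome 15, on the minus strand, from 102215995 to 102231944.

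Itgav, an alpha chain that recognises matrix proteins and latent transforming growth factor beta, had log2(TPM + 1) values of 2.45, 2.64, 2.69 and 3.08 in AeEM replicates 1 to 4 and of 3.20, 3.0, 3.05 and 2.46 in AeMM replicates 1 to 4. Replicate 4 ran against the other three, with the AeEM library high and the AeMM library low. The difference was -0.21 (SE 0.19, adjusted p = 0.62 in limma), with a 95% interval of -0.64 to 0.21. The set model gave an interval of -0.74 to 0.31. In the sets the difference was -0.75, -0.37 and 0.13. It was -0.13 without AeEM replicate 1 and likewise -0.13 without AeMM replicate 1, against -0.34 without AeEM replicate 4 and -0.37 without AeMM replicate 4. Itgav lies on chromosome 2 from 83724397 to 83806916, overlapped on the opposite strand by Gm13684 (mean 0.24 TPM).

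Itgb5, which pairs with Itgav and takes part in the uptake of apoptotic cells, had log2(TPM + 1) values of 2.68, 2.54, 2.57 and 2.67 in AeEM replicates 1 to 4 and of 2.86, 3.0, 3.0 and 2.85 in AeMM replicates 1 to 4. No AeEM library reached an AeMM library. The difference was -0.31 (SE 0.09, 95% interval -0.52 to -0.10), and it missed the threshold in limma (adjusted p = 0.13 unpaired, and 0.54 in the set model, whose interval ran from -0.63 to 0.02). The exact permutation p was 0.0286. Set by set it was -0.18, -0.45 and -0.30. On the TPM scale the means were 5.14 in AeEMs and 6.61 in AeMMs. Itgb5 lies on chromosome 16 from 33829665 to 33949338.

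**Figure D3:**
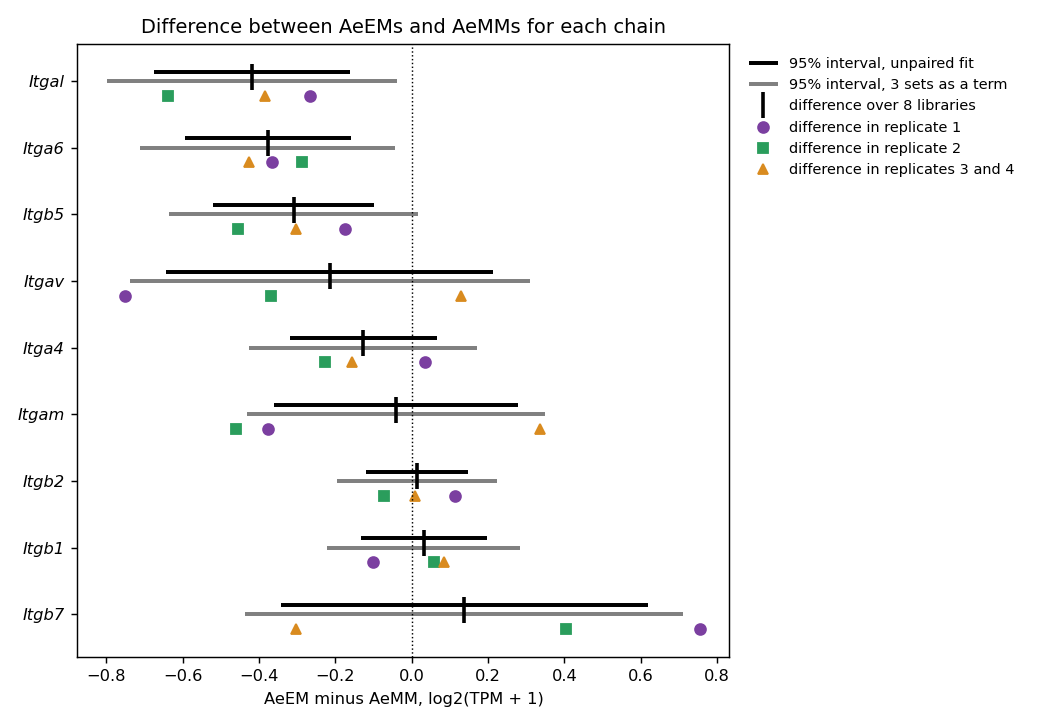
Difference between AeEMs and AeMMs in log2(TPM + 1) for each chain, with 95% intervals of the unpaired fit (black) and of the set model (grey), and the difference within each set as coloured points. The set points of Itgal, Itga6 and Itgb5 are all negative, from -0.64 to -0.18, while those of the other 6 chains lie on both sides of 0.

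Chains that form 1 receptor were also set against each other within each library, and 2 of 7 pairs showed no overlap between the groups. Itga6 minus Itgb1, the pair that binds laminin, was -2.37 ± 0.06 in AeEMs and -1.97 ± 0.08 in AeMMs (difference of log2(TPM + 1), SD, n = 4 libraries), without overlap. For Itgal minus Itgb2 the values were -4.53 ± 0.08 and -4.10 ± 0.10, again without overlap. In both pairs the beta chain was near level between groups and the alpha chain was lower in AeEMs, so that these differences restate those of Itga6 and Itgal. The other 5 pairs overlapped. Itgav minus Itgb5 was 0.10 ± 0.26 in AeEMs and 0.002 ± 0.299 in AeMMs, that is, both chains stood at like levels. Itga4 minus Itgb7 was 0.07 ± 0.26 and 0.34 ± 0.42, and Itgam minus Itgb2 was -1.24 ± 0.21 and -1.18 ± 0.23. No test was made of these pairs.

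**Figure D4:**
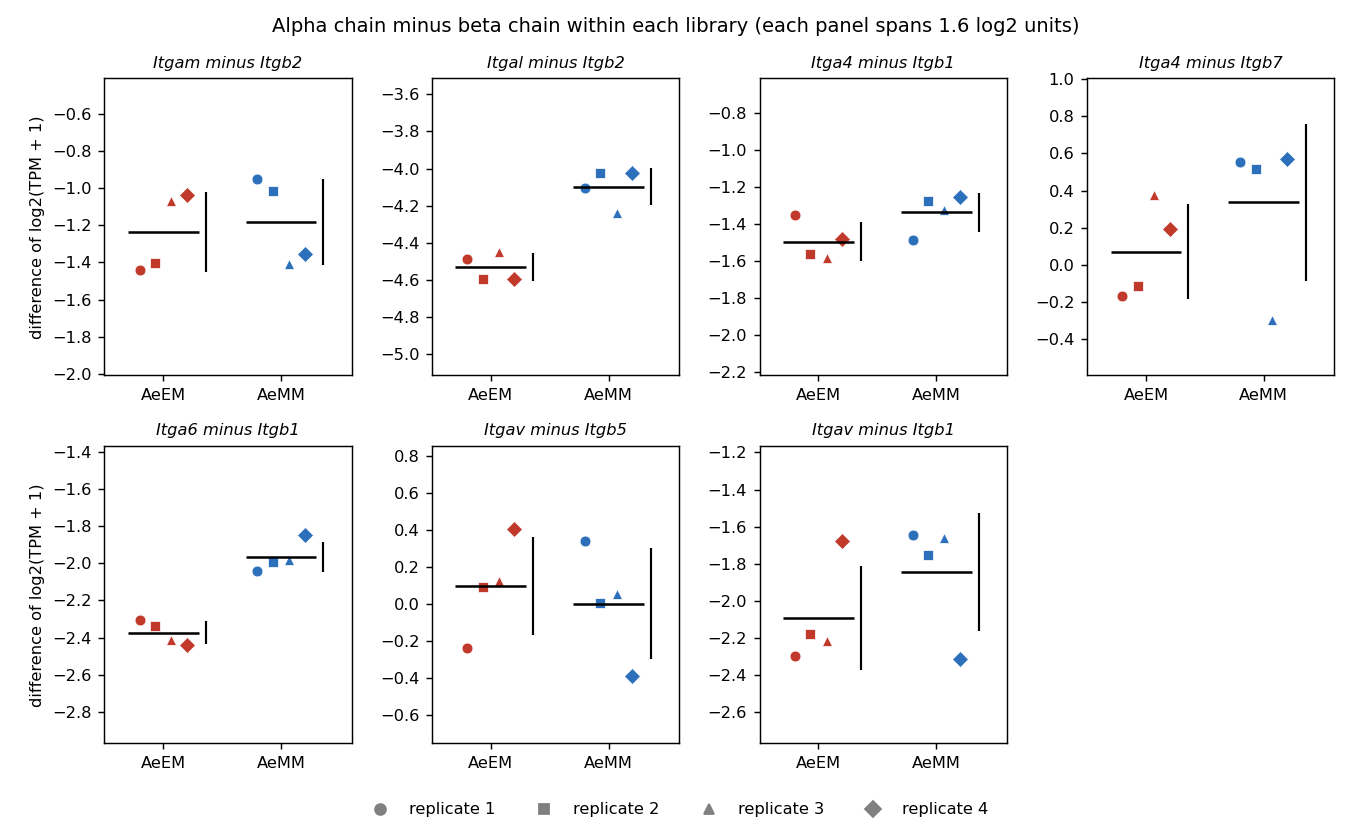
Alpha chain minus beta chain in log2(TPM + 1) within each library for 7 known pairs, in AeEMs (red) and AeMMs (blue), with marker shapes for the replicate number, lines for the mean and bars for the SD of 4 libraries. Only Itgal minus Itgb2 and Itga6 minus Itgb1 have no overlap between groups, at -4.53 against -4.10 and -2.37 against -1.97.

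Across the 8 libraries, Itgal, Itga6, Itga4 and Itgb5 varied together, with Pearson r of 0.71 to 0.92 between them, given as a description because the libraries share the group contrast and the adjustment between sets. Itgam and Itgb7 ran opposite to each other (r = -0.77, n = 8 libraries).

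Of the 18 other integrin chains, 2 were tested. Itgax was higher, as given above, and Itga5, the fibronectin receptor chain, averaged 1.95 ± 0.22 (AeEMs) and 1.71 ± 0.24 (AeMMs) on the log2(TPM + 1) scale (SD, n = 4 libraries), a difference of 0.23 that did not pass (limma adjusted p = 0.51). Of the 16 below the filter, Itga9 was highest at a mean of 0.56 TPM, and 11, among them Itga1, Itga2, Itga3, Itgb4 and Itgb8, were listed under 0.1 TPM in every library. A low value in this table need not mean absence, because Ilk, an integrin-linked kinase that most cells use, was also listed under 0.1 TPM throughout.

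Integrin ligands and counter-receptors followed, with 26 of 27 listed genes in the table and 9 tested. Of these, 1 was lower in AeEMs in both limma models, Spp1, the secreted phosphoprotein bound by Itgav integrins and by Itga4 with Itgb1, and 8 did not pass. The 4 AeEM libraries had a mean of 8.0 ± 0.32 and the AeMM libraries one of 9.67 ± 0.26 for Spp1 (log2(TPM + 1), SD), which is a difference of -1.67 (SE 0.18, adjusted p = 0.0029 in limma and 0.033 in the set model). Fn1, which encodes fibronectin, had a difference of 0.26 and Thbs1, which encodes thrombospondin 1, one of -0.30 (limma adjusted p = 0.55 and 0.26). Without adjustment, 5 of the 9 had a limma p under 0.05 in the unpaired fit and 4 in the set model. The 5 were Spp1, C3 (-0.74), Vcam1 (-0.38), Thbs1 and Mfge8 (0.60), so they ran in both directions. The median of the 9 was -0.01, beside -0.01 for all genes.

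Of 12 tested genes that switch integrins on from inside the cell, 0 passed (1 at an unadjusted limma p under 0.05), and their median difference was -0.04. Rap1b, the small GTPase upstream of talin, had a difference of -0.15, Fermt3, the kindlin of blood cells, one of -0.0015, and Tln1, which encodes talin 1, one of 0.01 (limma adjusted p of 0.50 to 0.99). Among 12 tested inactivators and tail-binding inhibitors 0 passed (2 unadjusted), with a median of 0.04. Flna, which encodes filamin A and competes with talin for the beta tail, differed by 0.09, Sharpin, an inhibitor of Itgb1 activation, by 0.02, and Dok2, an adaptor with a domain that binds beta tails, by 0.46 (limma adjusted p = 0.62, 0.95 and 0.056). In the set model 0 genes of either list passed (1 unadjusted in each).

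The 9 large peritoneal macrophage markers, led by Cd5l, summed to 294 to 350 TPM in AeEMs and 293 to 344 TPM in AeMMs, and 0 of 6 tested passed (3 unadjusted in limma). Platelet and megakaryocyte markers, nearly all Pf4, summed to 4864 to 6067 TPM and 4955 to 5385 TPM, with Gp9 under 0.1 TPM throughout. Itga2b of the same list averaged 0.051 TPM, so the sum describes Pf4 and not platelet markers at large. Haemoglobin and other erythroid transcripts, led by Hba-a1, summed to 7665 to 12746 TPM and 4210 to 10475 TPM, and 0 of 5 tested passed (3 unadjusted in limma).

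Downstream of integrins, 0 of 21 tested genes of outside-in signalling and focal adhesion passed in either limma model (5 unadjusted in the unpaired fit and 3 in the set model), with a median of 0.01. Fcer1g and Tyrobp, adaptors through which Mac-1 signals to Syk, differed by -0.23 and -0.24 and Rac2, the GTPase of leukocyte motility, by 0.27, each without overlap between groups (limma adjusted p = 0.069, 0.069 and 0.080). Of 17 tested membrane partners and traffic genes 0 passed (2 unadjusted in the unpaired fit and 0 in the set model), with a median of 0.04, and the most abundant were Bsg, Arf6 and Slc3a2, with differences of 0.18, 0.15 and 0.04 (limma adjusted p = 0.35, 0.46 and 0.89). Of 12 tested transcription factors of these lineages 2 were higher in AeEMs, Id2 (0.66) and Batf3 (0.54), both factors of dendritic cell development, with limma adjusted p of 0.0106 and 0.024. In the set model neither passed (limma adjusted p = 0.091 and 0.27). The median difference of the 12 was -0.13, and 7 of them had an unadjusted limma p under 0.05 (5 in the set model).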

How the data were processed

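Smart-seq2 libraries of sorted tdTomato-negative (AeEM, n = 4) and tdTomato-positive (AeMM, n = 4) macrophages were analysed. Per the paper's methods and the submitters' processing notes, reads were cleaned with fastp, mapped with STAR 2.7.2a to mm10 and counted with Subread featureCounts. Values were deposited by the authors as log2 of TPM + 1. In these values the gene means of 3 sets of libraries coincide closely. The annotation, the strand setting, the conversion to TPM and the adjustment are not given in the sources used here. No read counts were used, so depth is unknown and no counting interval is given.

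The 8801 genes that averaged 1 TPM or more (after back-transforming, with values below 0 set to 0) were fitted in limma 3.58.1 under R 4.3.3, unpaired and with a mean-variance trend, and again in a set model that adds the 3 sets. The script was tested on simulated data. Benjamini-Hochberg adjustment ran over all genes tested. For each of the 9 chains, all 70 assignments of 4 and 4 libraries gave an exact permutation p, two-sided. Alternatives changed the pseudocount, filter, scaling, trend, library weights, replicate block and libraries used. The set model with no trend was added after seeing the data.

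The 9 chains and the gene lists were chosen with earlier results of these data known. Genes named are the 9 chains, every other integrin chain of at least 1 TPM, from each other pathway list the genes past the threshold (up to 4 in each direction) or, where fewer than 3 passed, the most abundant up to 3 in all, and the most abundant gene of each marker list. For the chains with the largest positive and negative t, the 5 genes of highest r were named too. A gene that this rule names is not reported here. Itga9, Nkg7, Ly6c2, Chil3, Cd209a, Ilk, C3, Vcam1, Mfge8, genes listed under 0.1 TPM, Csf1r and Adgre1 were named after their values were seen. Positions came from GENCODE M21 and promoters from RefSeq.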

Additional observations from a re-analysis of the deposited data

How the results depend on the processing

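The count of chains called higher was 0 under all alternatives, and the count called lower was 0 under all but library weights, which called 3 (Itga6, Itgal and Itgb5). Of 179 values of single chains under an alternative, 165 kept their direction and side of the threshold, 3 newly passed it (those weights) and 11 turned sign. The sign turned for Itgam, with a range of -0.11 to 0.029 when 1 library was left out and a value of 0.34 in replicates 3 and 4 only, for Itgav (0.13) and Itgb7 (-0.30) in replicates 3 and 4 only, for Itgb1, with -0.0028 to 0.055 when 1 library was left out and -0.0065 with library weights, and for Itgb2, with -0.0026 to 0.029. The difference of Itgal minus Itgb2 between the groups was -0.56 with a pseudocount of 0.1, against -0.43. A pseudocount of 5 gave -0.20 for Itgal, -0.23 for Itga6 and -0.20 for Itgb5, against -0.42, -0.38 and -0.31, with no call changed, since a larger offset shrinks the differences of chains at a few TPM. Itgal had no value with a minimum of 5 TPM, where it fell under the filter.

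Over all genes, 110 were called higher and 102 lower. The counts were 9 and 5 in the set model, 0 and 0 in it with no trend (791 at an unadjusted limma p under 0.05), 3 and 2 with a replicate block, 540 and 836 with library weights, 78 and 58 without the trend, and 0 and 0 in replicates 3 and 4 only (566 unadjusted). Without 1 library they ranged from 40 to 106 and from 31 to 113. The replicate block, which takes equal numbers as pairs although no source says so, changed no call for a chain (smallest limma adjusted p = 0.44). With 1 library per group, equal set means force the 2 libraries of replicate 1, and those of replicate 2, to deviate in opposite directions, so a check of the pairing would be void. The depth behind low chains such as Itgal is unknown.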

Other observations

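The genes whose pattern over the 8 libraries was most like that of Itga6, by Pearson r, were Fcgr2b, Mmab, Pttg1, Tlr7 and Cox14 (r of 0.98 to 0.99). Of these, Pttg1 and Cox14 were lower in AeEMs in the unpaired fit (differences of -0.53 and -0.39, limma adjusted p = 0.0087 and 0.022). Itga6 was taken as the chain with the most negative t, so low AeEM values were built into the choice of genes like it. These p therefore add no separate evidence. The genes most like Itgb7 were Slc38a9, Sharpin, Eno3, Eloa and Cog8 (r of 0.97 to 0.98), and none of them differed between the groups in the test. Sharpin was highest in AeMM replicate 3, at 5.54, as was Itgb7, and stood between 5.21 and 5.41 in the other libraries (log2(TPM + 1)). These r describe 8 libraries that share the adjustment between sets, and the genes were the highest of all genes tested.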
